A study of Mus musculus with 10 samples.

Results

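The perineuronal net is a lattice of extracellular matrix that wraps the cell bodies and proximal dendrites of some neurons, most densely fast-spiking interneurons that express parvalbumin. Hyaluronan chains, made at the cell surface by hyaluronan synthases, form its backbone. Lecticans, which are chondroitin sulfate proteoglycans, bind the backbone through their N-terminal end, link proteins hold that bond, and tenascin-R joins the C-terminal ends of lecticans to each other. Nets mature in the cortex at the end of critical periods, and their removal reopens plasticity.

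The set described here held 9 of the 22000 genes in the count table. It was listed by gene name, with earlier results of these data known. It contained 3 lecticans (*Acan*, *Bcan* and *Ncan*), 2 link proteins (*Hapln1* and *Hapln4*), 2 tenascins (*Tnr* and *Tnc*) and 2 hyaluronan synthases (*Has2* and *Has3*). RNA-seq libraries came from the prefrontal cortex (PFC) of mice labelled male and aged 7 weeks. There were 5 *Zbtb16* KO and 5 *Zbtb16* WT mice, with 1 library per mouse. KO mice were homozygous for *lu*, a nonsense point mutation of the transcription factor gene *Zbtb16* from the B6.C3-*Zbtb16 lu*/J strain, and the WT mice did not carry it. The mutation is present in all tissues throughout life, and bulk tissue was sequenced, so fewer cells of a type and less RNA per cell cannot be told apart. The question was which genes of the PFC depend on *Zbtb16*.

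Libraries held 30220122 to 51231439 counts, and 3 counts, taken as the floor of detection, corresponded to 0.0586 to 0.0993 counts scaled to library size (CPM). *Zbtb16* itself had 42.1 to 52.8 CPM in the KO mice and 70.7 to 88.3 CPM in the WT mice, without overlap. The excitatory cortical markers *Slc17a7*, *Tbr1*, *Neurod6*, *Cux2* and *Fezf2* were all detected, with summed levels of 1807 to 2319 CPM over the mice. KO mouse 3, labelled male, had 1 count in all over 4 genes of the Y chromosome (*Uty*, *Kdm5d*, *Ddx3y* and *Eif2s3y*), against 4376 to 8182 in the other mice. The labelled sex of this mouse is thus in doubt. It was kept under its label, and the fit without it is given after the marker lists. RNA integrity numbers (RIN) ran from 8.1 to 9.7 in KO and from 8.2 to 9.8 in WT mice.

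The lectican and link protein genes lie in neighbouring pairs in the mouse genome (GRCm38). *Ncan* (ENSMUSG00000002341.8, chr8:70093085-70120873, minus strand) and *Hapln4* (ENSMUSG00000007594.10, chr8:70083457-70090862, plus strand) are separated by 2222 bases. *Hapln1* (ENSMUSG00000021613.9, chr13:89539796-89611652, plus strand) lies 43.7 kb from *Vcan*, a lectican outside the set. *Acan* (ENSMUSG00000030607.7, chr7:79053483-79115099, plus strand) ends 2 bases from the end of *Hapln3*, and *Bcan* (ENSMUSG00000004892.13, chr3:87987531-88000230, minus strand) lies 21.5 kb from *Hapln2*. *Tnr* (ENSMUSG00000015829.13, chr1:159523769-159931729, plus strand), *Tnc* (ENSMUSG00000028364.15, chr4:63959785-64047015, minus strand), *Has2* (ENSMUSG00000022367.7, chr15:56665627-56694539, minus strand) and *Has3* (ENSMUSG00000031910.14, chr8:106870242-106884566, plus strand) stand apart from these pairs. Exons of each of these last 4 genes overlap a gene on the opposite strand, for *Has3* the protein-coding *Chtf8*. The libraries were made with a stranded kit, but whether reads were counted by strand is not given in the sources used here. If they were not, counts of *Tnr*, *Tnc* and *Has2* may include reads of their non-coding partners. Reads in exons that *Has3* shares with *Chtf8* may instead have been left uncounted as ambiguous.

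RefSeq promoter sequences (GRCm38.p6) were matched for 6 of the 9 genes, with none for *Hapln4*, *Has2* and *Has3*. The sequences of the 3 lecticans are printed because these related genes differ widely in level, and that of *Tnr* because it had the highest CPM of the set in both genotypes. Each runs 5′ to 3′ and lies upstream of the RefSeq start. Capitals mark matches on either strand to the GC box, searched as GGGCGG, to the box named for its letters CCAAT, and to the TATA box, searched as TATAAA.
*Acan*, chr7:79052976-79053225, plus strand: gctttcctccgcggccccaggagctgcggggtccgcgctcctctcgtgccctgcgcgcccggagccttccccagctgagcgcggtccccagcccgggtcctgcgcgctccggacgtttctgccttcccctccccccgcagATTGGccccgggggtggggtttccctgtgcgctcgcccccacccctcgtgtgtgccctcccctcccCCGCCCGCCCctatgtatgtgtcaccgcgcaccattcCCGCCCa
*Bcan*, chr3:88000357-88000606, minus strand: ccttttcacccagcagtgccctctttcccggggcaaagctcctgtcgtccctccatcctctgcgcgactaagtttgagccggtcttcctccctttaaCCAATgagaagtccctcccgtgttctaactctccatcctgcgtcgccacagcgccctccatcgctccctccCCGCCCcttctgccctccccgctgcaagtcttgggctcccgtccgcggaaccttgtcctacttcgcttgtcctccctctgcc
*Ncan*, chr8:70120874-70121094, minus strand: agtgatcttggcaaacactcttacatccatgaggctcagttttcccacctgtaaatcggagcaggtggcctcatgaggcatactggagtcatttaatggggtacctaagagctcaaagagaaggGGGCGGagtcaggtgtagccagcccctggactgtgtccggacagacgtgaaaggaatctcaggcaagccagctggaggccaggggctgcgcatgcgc
*Tnr*, chr1:159523519-159523768, plus strand: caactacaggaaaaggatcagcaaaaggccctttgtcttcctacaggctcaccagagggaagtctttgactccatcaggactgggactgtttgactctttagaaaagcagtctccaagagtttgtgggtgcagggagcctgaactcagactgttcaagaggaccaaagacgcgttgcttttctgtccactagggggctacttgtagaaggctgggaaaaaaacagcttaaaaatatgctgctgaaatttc

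In the 250 bases upstream of the start, the *Acan* sequence had a GC content of 74.4% and 26 CpG dinucleotides, against medians of 52.4% and 6 over the 32851 promoters in the table. *Bcan* had 62.0% and 16 CpG, *Ncan* 54.4% and 6, and *Tnr* 46.8% and 2. *Acan* held 3 GC boxes, 2 of them overlapping each other, and *Bcan* and *Ncan* held 1 each, while *Tnr* had no match to any of these motifs. *Acan* and *Bcan* also held a CCAAT box each. A GC box was present in 32.7%, a CCAAT box in 33.8% and a TATA box in 12.4% of all promoters in windows of that length. The annotated *Ncan* exon takes up the last 29 of its 250 bases, which are not printed and hold a TATA box match. The *Hapln1* window lies within an exon of the Gencode annotation and is not printed either.

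Divided by exonic length, the levels of the set spanned a wide range in WT mice. *Bcan* (brevican) stood at 45.4 ± 2.68 CPM per kb (SD, n = 5), *Hapln4* at 44.3 ± 2.30, *Ncan* (neurocan) at 38.0 ± 3.08 and *Tnr* (tenascin-R) at 22.8 ± 1.33. *Hapln1*, which encodes the cartilage link protein, followed at 5.95 ± 0.744 CPM per kb (SD, n = 5). *Acan* (aggrecan), a defining proteoglycan of nets, had 0.570 ± 0.100 CPM per kb, *Tnc* (tenascin-C) 0.433 ± 0.122, *Has3* 0.294 ± 0.0452 and *Has2* 0.0585 ± 0.0471 (SD, n = 5 each). The WT values of *Bcan* and *Hapln4* overlapped, as did those of *Acan* and *Tnc* and those of *Tnc* and *Has3*, while all other neighbours in this order were separated. In KO mice *Ncan* (41.9 ± 3.17 CPM per kb) stood above *Hapln4* (37.8 ± 4.49; SD, n = 5 each) and *Has3* above *Tnc*. These 2 changes of place were between neighbours whose KO values overlapped.

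**Figure D1:**
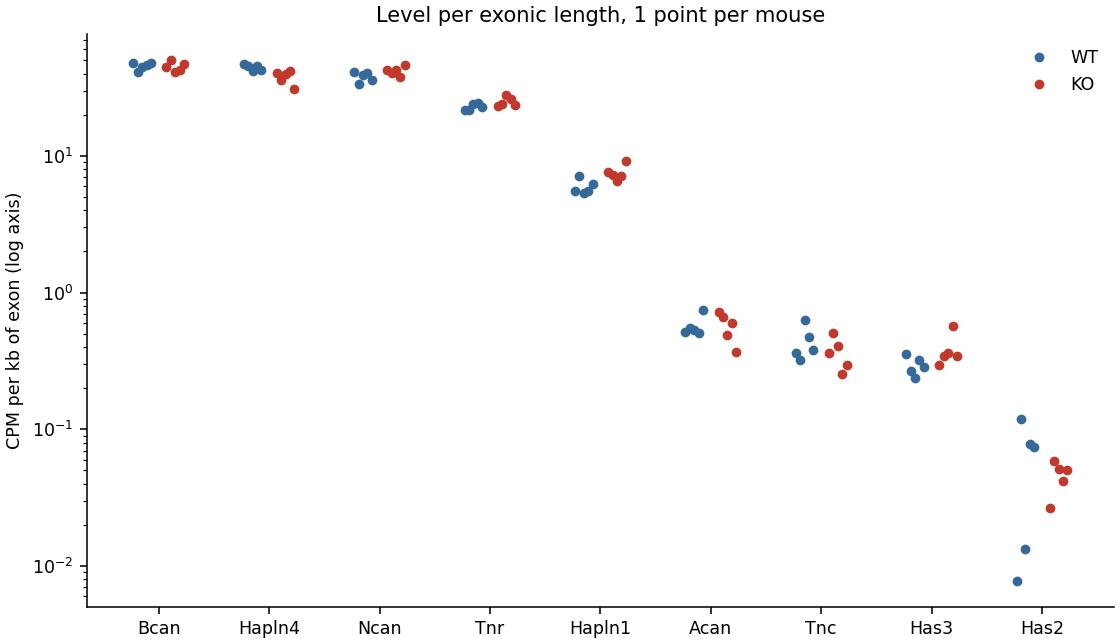
Level of each of the 9 matrix genes in CPM per kb of exon (log axis), with 1 point per mouse, WT in blue and KO in red, ordered by the WT mean. *Bcan*, *Hapln4*, *Ncan* and *Tnr* lie above 20 CPM per kb, *Hapln1* between 5 and 10, and the other 4 genes below 1.

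Genotypes were compared over the whole table with edgeR's quasi-likelihood test, which held genotype and 3 surrogate variables (numbers that sva derives from the expression matrix to stand for unrecorded differences between libraries). None of the 8 members that passed the filter on low counts was called at an adjusted p under 0.05, where 0.844% of all 14344 tested genes were called. At an unadjusted p under 0.05 the count was 4 of 8, *Ncan* and *Hapln1* with higher and *Hapln4* and *Tnc* with lower KO values, against 10.6% of the tested genes. The members and the lists below were chosen with earlier results of these data known. Such counts beside the share of all genes are therefore descriptions, and no excess can be read from them. Without surrogate variables, edgeR again called none of the 8 (0.209% of all tested genes), and 4 had an unadjusted p under 0.05 (8.02% of all tested genes). DESeq2 called 1, *Hapln1*, where it called 1.6% of all tested genes. Limma called none, where it called 115 of all 14344 tested genes. It gave 4 members an unadjusted p under 0.05, beside 11.3% of all tested genes. No member was free of overlap between the genotypes, which 1.58% of the tested genes were. The median log2 fold change of the 8 was 0.09, beside -0.0044 for all tested genes.

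**Figure D2:**
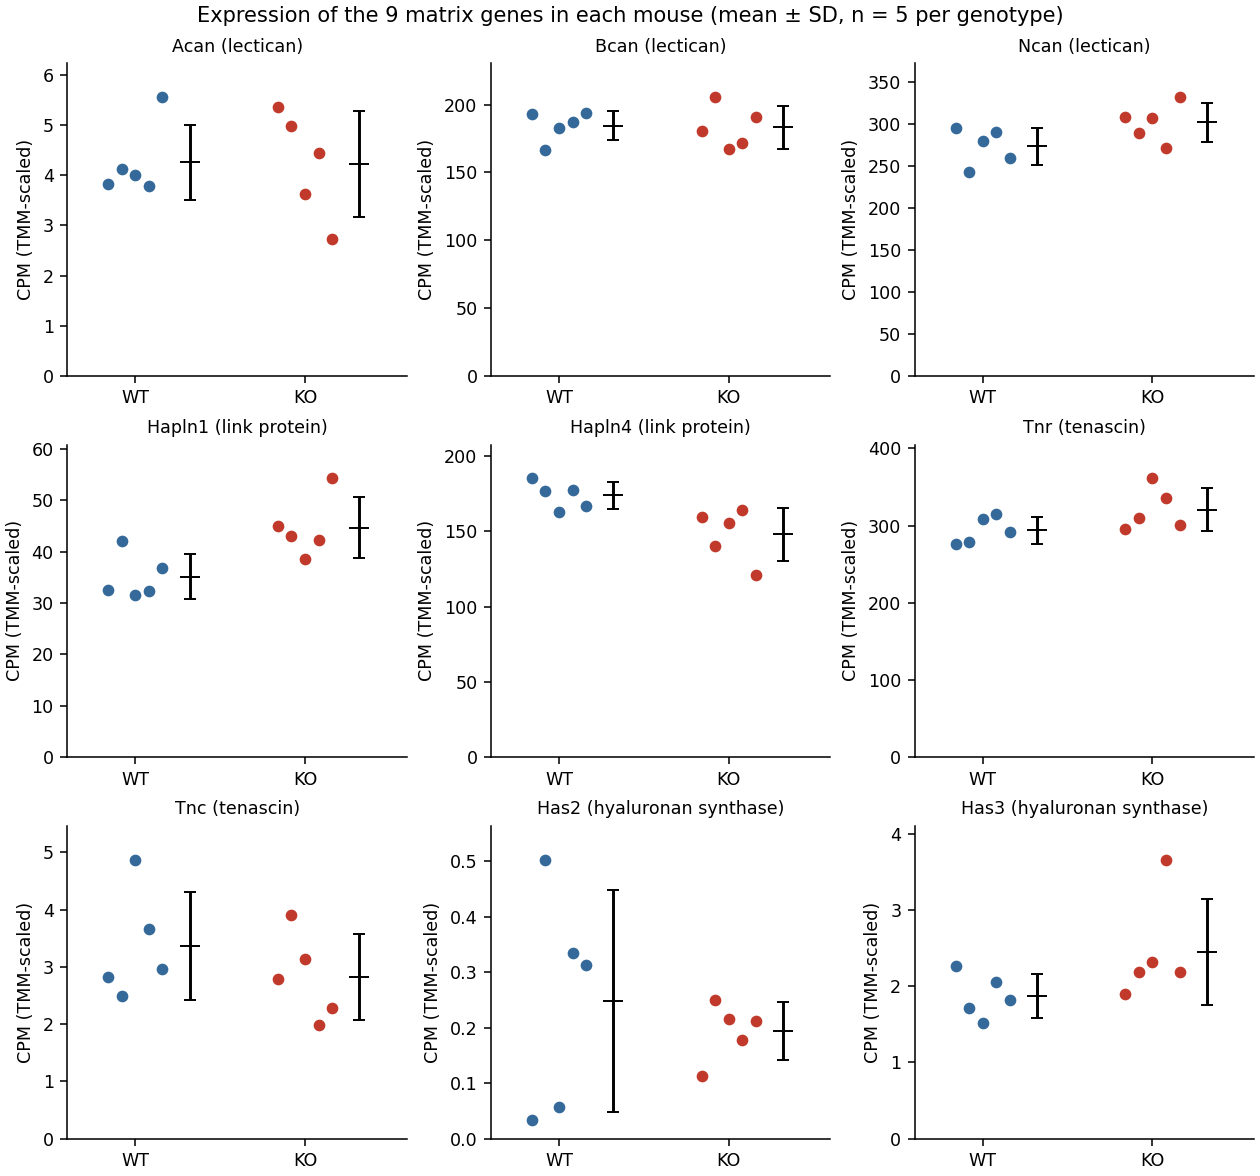
CPM, scaled by TMM factors, of the 9 matrix genes in each mouse, with WT in blue, KO in red and black bars for the mean ± SD (n = 5 per genotype). For *Hapln1*, 4 of 5 KO mice lie above every WT mouse, and for *Hapln4* 4 of 5 lie below every WT mouse, while the other genes overlap more.

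Among the link proteins, which clamp lecticans to hyaluronan, *Hapln1* and *Hapln4* had mean differences between the genotypes in opposite directions, neither of which passed the threshold. *Hapln1* was measured at 45.1, 43.0, 38.5, 42.4 and 54.3 CPM in KO mice 1 to 5, and at 32.6, 42.1, 31.7, 32.4 and 36.8 CPM in WT mice 1 to 5. All KO mice were above the WT mean, and 4 of the 5 exceeded the highest WT mouse, WT mouse 2. Means were 44.7 ± 5.90 CPM in KO and 35.1 ± 4.39 CPM in WT mice (SD, n = 5 each). In edgeR's quasi-likelihood test the fold was 1.27 (95% interval 1.13 to 1.42), or 0.34 on the log2 scale with a standard error of 0.08, and the adjusted p was 0.0576. This p depended on the fit, as it was 0.263 without surrogate variables, 0.0041 with DESeq2 and 0.0370 in edgeR without the filter on low counts. The log2 fold change itself lay between 0.30 and 0.44 across the 10 fits that each omitted a mouse. *Hapln1* then passed in 5 of the 10 edgeR fits, with adjusted p-values of 0.0139 without KO mouse 2, 0.0171 without KO mouse 4, 0.0104 without KO mouse 5, 0.00854 without WT mouse 2 and 0.0458 without WT mouse 5. Over the whole table these fits called 248, 99, 167, 148 and 90 genes in that order, against 121 with all mice. The fits that did not call *Hapln1* called 39 to 133 genes.

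*Hapln4* encodes the brain link protein found at perineuronal nets and inhibitory synapses. It had 159.5, 140.2, 156, 165 and 121 CPM in KO mice 1 to 5 and 186, 177, 163, 178 and 167 CPM in WT mice 1 to 5. All KO mice were below the WT mean, and 4 of the 5 were below the lowest WT mouse, with KO mouse 4 just above it. Means were 148 ± 17.6 CPM in KO and 174 ± 9.04 CPM in WT mice (SD, n = 5 each). The fold was 0.905 (95% interval 0.850 to 0.964), or -0.14 on the log2 scale with a standard error of 0.04, and edgeR gave an adjusted p of 0.167. Without surrogate variables it was -0.23 on the log2 scale, where edgeR's adjusted p was 0.385. Its direction was the same in all 24 alternative fits, none of which called it, with adjusted p-values from 0.0525 to 0.871.

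**Figure D3:**
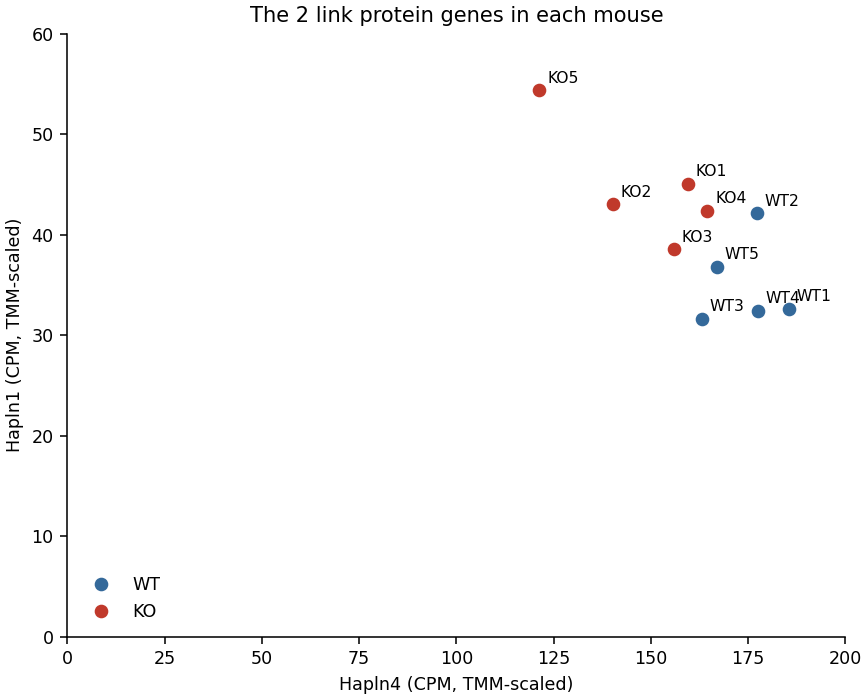
*Hapln1* (vertical axis) against *Hapln4* (horizontal axis) in CPM for each mouse, WT in blue and KO in red. KO mouse 5 has the highest *Hapln1* (54.3 CPM) and the lowest *Hapln4* (121 CPM), and the WT mice lie toward the lower right.

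The ratio of *Hapln1* to *Hapln4* within a library needs no scaling between mice, and was looked at after the values of both genes had been seen. It was 0.283, 0.307, 0.247, 0.257 and 0.448 in KO mice 1 to 5 and 0.176, 0.238, 0.194, 0.183 and 0.220 in WT mice 1 to 5. Every KO mouse was above every WT mouse, with KO mouse 3 and WT mouse 2 the nearest. Of the 28 ratios that the 8 tested members allow, this was the only one without overlap between the genotypes. Its 2 genes each had 4 of 5 KO mice beyond the WT range, on opposite sides, so the ratio adds little to their separate values. The share of such ratios over all pairs of tested genes was not computed. The ratio is given as a description, with no test.

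Of the lecticans, *Ncan*, a chondroitin sulfate proteoglycan secreted in the developing and adult brain, had 308, 289, 307, 271 and 332 CPM in KO mice 1 to 5. In WT mice 1 to 5 it had 295, 242, 279.6, 289.8 and 259.6 CPM. Of the KO mice, 3 lay above the highest WT mouse, and KO mouse 4 lay below the WT mean. The log2 fold change was 0.10 (standard error 0.04, 95% interval 0.015 to 0.183) and edgeR's adjusted p was 0.358. It was 0.049 without WT mouse 3, 0.049 without WT mouse 5 and 0.051 without KO mouse 1, and 0.090 to 0.13 without any other single mouse. *Ncan* and its neighbour *Hapln4*, at 0.10 and -0.14, thus had values on opposite sides of zero.

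*Bcan*, the most abundant of the lecticans per kb, is made by astrocytes and oligodendrocyte precursors. It was measured at 181, 206, 167, 172 and 191 CPM in KO mice 1 to 5 and at 193, 167, 183, 187 and 194 CPM in WT mice 1 to 5. The genotypes covered nearly the same range, with means of 183 ± 15.6 and 185 ± 10.9 CPM (SD, n = 5 each). The fold lay within a 95% interval of 0.889 to 1.03, or -0.066 on the log2 scale, and edgeR's adjusted p was 0.703. Fits that each omitted a mouse gave log2 values from -0.098 without KO mouse 1 to -0.022 without KO mouse 4.

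*Acan*, whose protein carries the sugar epitopes by which many nets are stained, had 115 to 197 counts per library, and its values spread widely between mice. KO mice 1 to 5 had 5.36, 4.98, 3.64, 4.46 and 2.72 CPM, and WT mice 1 to 5 had 3.82, 4.13, 4.0, 3.78 and 5.57 CPM. The KO values enclosed the WT values except for WT mouse 5, which was the highest of all mice. Its log2 fold change was 0.083 (95% interval -0.246 to 0.411, edgeR adjusted p = 0.910) with surrogate variables and -0.017 without them, so the sign depended on the fit. The 95% interval of the fold, 0.843 to 1.33, shows what size of difference this spread could not resolve.

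Of the tenascins, *Tnr* encodes the glycoprotein that cross-links lecticans and is made by cells of the oligodendrocyte lineage. It had 296, 309, 362, 336 and 301 CPM in KO mice 1 to 5 and 276, 279, 308, 314 and 292 CPM in WT mice 1 to 5. All KO mice were above the WT mean and 2 of them, KO mice 3 and 4, above the highest WT mouse. The log2 fold change was 0.12 (standard error 0.06, edgeR adjusted p = 0.473) and ran from 0.023 without KO mouse 4 to 0.19 without KO mouse 1.

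*Tnc*, a matrix glycoprotein of astrocytes and progenitors that is mostly developmental, was close to *Acan* in level. KO mice 1 to 5 had 2.79, 3.91, 3.14, 1.98 and 2.28 CPM, and WT mice 1 to 5 had 2.82, 2.49, 4.88, 3.67 and 2.96 CPM. The ranges overlapped, with 2 KO mice below the lowest WT mouse and KO mouse 2 above the WT mean. Its log2 fold change was -0.41 (standard error 0.16, edgeR adjusted p = 0.340), and it was -0.26 without surrogate variables.

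The hyaluronan synthases, which extrude hyaluronan through the plasma membrane, were at the bottom of the range. *Has3* had 1.89, 2.19, 2.31, 3.66 and 2.18 CPM in KO mice 1 to 5 and 2.26, 1.72, 1.52, 2.06 and 1.82 CPM in WT mice 1 to 5. KO mouse 4 stood above all others, and 3 of the KO mice lay within the WT range. The log2 fold change was 0.45 (95% interval -0.032 to 0.926, edgeR adjusted p = 0.510), and without KO mouse 4 it was 0.19. *Has2* had 4, 8, 7, 6 and 11 counts in KO mice 1 to 5 and 1, 24, 2, 12 and 11 counts in WT mice 1 to 5. It did not pass the filter on low counts, and WT mice 1 and 3 were under the floor of 3 counts, so no genotype difference was detectable at this depth. In the fit without a filter its log2 fold change was -0.26 with a 95% interval of -1.78 to 1.26.

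**Figure D4:**
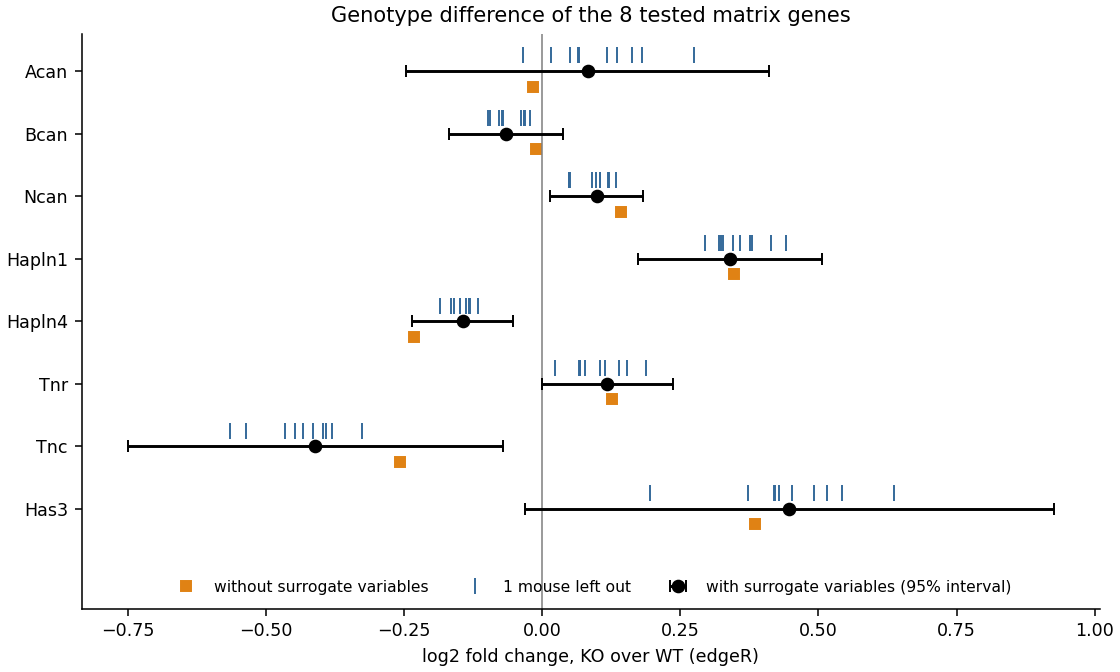
Log2 fold change, KO over WT, of the 8 tested matrix genes in edgeR. Black points and bars are the fit with surrogate variables and its 95% interval, orange squares the fit without them, and blue ticks the 10 fits that leave out 1 mouse each. Intervals of *Ncan*, *Hapln1*, *Hapln4* and *Tnc* do not include 0 before adjustment over all genes.

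The spread between mice of a genotype differed among the members. The coefficient of variation (SD over mean) in WT mice was 5.19% for *Hapln4*, 5.83% for *Tnr*, 5.90% for *Bcan* and 8.10% for *Ncan*. It was 12.5% for *Hapln1*, 15.4% for *Has3*, 17.5% for *Acan* and 28.2% for *Tnc*. In KO mice it was higher for *Hapln4* (11.9%), *Tnr* (8.60%), *Bcan* (8.53%), *Hapln1* (13.2%), *Has3* (28.4%) and *Acan* (25.1%), and lower for *Ncan* (7.57%) and *Tnc* (26.9%). These differences in spread were not tested.

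After subtraction of the genotype means, the members did not vary as 1 block over the 10 mice. Likeness was measured as Pearson's r of log2 CPM over these mice, which share their libraries, and is given as a description. Between members it ran from -0.67, for *Hapln1* and *Tnr*, to 0.47, for *Hapln4* and *Has3*. The 2 most similar tested genes were *Timp3* (r = 0.93) and *Cbx7* (0.93) for *Acan*, *Vsir* (0.96) and *Sema6d* (0.94) for *Bcan*, and *Sv2a* (0.97) and *Dusp8* (0.96) for *Ncan*. They were *Mknk1* (0.95) and *Fabp5* (0.95) for *Hapln1*, and *Alox12b* (0.97) and *Ttc39b* (0.95) for *Hapln4*. For *Tnr* they were *Aqr* (0.96) and *Ldb2* (0.95), for *Tnc* *Celsr3* (0.96) and *Sptbn4* (0.96), and for *Has3* *Sar1a* (0.93) and *Eloa* (0.92). These are the highest values among all tested genes over only 10 mice, and the lists of the 8 members share no gene.

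RIN split the mice into 6 with 9.5 or above (3 per genotype) and 4 with under 9 (2 per genotype). Within both classes *Hapln1* was higher in every KO than in every WT mouse, with mean log2 differences of 0.23 at high and 0.51 at low RIN. *Hapln4* was lower in every KO mouse within both classes, by -0.19 and -0.31 on the log2 scale. *Acan* was at 4.93 CPM in KO and 4.51 CPM in WT mice of high RIN, and at 3.18 and 3.89 CPM at low RIN, so that its difference changed sign. *Tnc* had log2 differences of 0.019 at high and -0.66 at low RIN, where the 2 WT mice averaged 4.27 CPM against 2.76 CPM in the 3 WT mice of high RIN. *Tnr* at high RIN, and *Acan*, *Ncan*, *Tnc* and *Has3* at low RIN, were also without overlap. In groups this small, 12.4% of all tested genes were without overlap at high RIN, with 3 mice per genotype, and 35.7% at low RIN, with 2 mice per genotype. In the small groups within a class, edgeR called none of the 8 members. Over all genes tested there it called 1 of 14345 at high and 0 of 14463 at low RIN. Of the members, 3 had an unadjusted p under 0.05 for high RIN (6.85% of all genes tested there) and 4 for low RIN (5.62%).

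Beyond the 9 members, a list of 61 other genes of the net was read from the same fit, of which 57 were tested. None was called in either direction by edgeR, where 0.844% of all tested genes were called. The same share stands beside each group of this list below. Positive log2 fold changes numbered 30 and negative ones 27, and the median was 0.026 beside -0.0044 for all tested genes. An unadjusted p under 0.05 was reached by 6 with higher and 4 with lower KO values, 10 of 57 beside 10.6% of all tested genes. DESeq2 called 2 of them, *Tnfaip6* and *Adamts9* (1.6% of all tested genes), and limma none. *Has1*, *Tnn* and *Chst13* were too low to be tested, with at most 17 counts in a library, and *Arsb* was not analysed here.

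Among genes of hyaluronan metabolism and binding, 0 of 8 tested were called by edgeR (0.844% of all tested genes). *Tnfaip6*, which transfers heavy chains onto hyaluronan and so stabilises it, had the largest difference. It was at 5.90, 6.92, 4.90, 5.73 and 4.48 CPM in KO mice 1 to 5 and at 7.34, 10.1, 7.05, 7.67 and 8.73 CPM in WT mice 1 to 5. All KO values were under all WT values. Such a lack of overlap was seen for 1 of the 57 tested genes of the list and for 1.58% of all tested genes. Its log2 fold change was -0.48 (standard error 0.11, edgeR adjusted p = 0.0521, 0.201 without surrogate variables and 0.0169 with DESeq2). *Cemip*, which takes part in hyaluronan breakdown, had the highest level of this group at 32.6 ± 1.73 CPM in KO and 31.8 ± 3.12 CPM in WT mice (SD, n = 5 each).

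The other lecticans and link proteins were 3, with none called. *Vcan*, which encodes versican, had 29.4 ± 3.27 CPM in KO and 25.7 ± 3.02 CPM in WT mice (SD, n = 5 each), or 0.12 on the log2 scale in the fit, beside 0.34 for its neighbour *Hapln1*. *Hapln3*, at a mean under 1 CPM, had a log2 fold change of 0.26 with a standard error of 0.33. The neighbours *Bcan* and *Hapln2*, a link protein of nodes of Ranvier, were both on the negative side, at -0.066 and -0.20.

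Of other proteoglycans and net receptors, 10 were tested and none called. *Ptprs*, a receptor for chondroitin sulfate, was the most abundant at 549 ± 13.4 CPM in KO and 549 ± 22.9 CPM in WT mice (SD, n = 5 each), with a 95% interval of -0.083 to 0.039 for the log2 fold change. *Cspg4*, the NG2 proteoglycan of oligodendrocyte precursors, had a log2 fold change of 0.14 with a standard error of 0.11. The enzymes that build chondroitin chains, 11 tested, and those that add or remove sulfate, 11 tested, held no called gene. *Chsy1*, a chondroitin synthase, had 15.8 ± 1.68 CPM in KO and 14.1 ± 0.811 CPM in WT mice (SD, n = 5 each; 0.22 on the log2 scale, edgeR adjusted p = 0.216). *B3gat3*, which completes the linker of the chains, and *Papss1*, which makes the sulfate donor, had log2 fold changes of 0.026 and 0.037, and *Chst7*, a sulfotransferase, 0.18 with a standard error of 0.22.

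Matrix proteases and their inhibitors numbered 14, again with none called by edgeR. *Adamts9*, a protease that cleaves aggrecan and versican, had 3.59, 5.32, 2.13, 3.07 and 2.57 CPM in KO mice 1 to 5 and 1.73, 2.87, 1.49, 1.97 and 1.34 CPM in WT mice 1 to 5. KO mice were higher on average but KO mice 3 and 5 lay below WT mouse 2. The log2 fold change was 0.86 (standard error 0.25, edgeR adjusted p = 0.160 and 0.0496 with DESeq2). *Timp2*, a metalloproteinase inhibitor, had the highest level, 309.7 ± 29.4 CPM in KO and 282 ± 23.1 CPM in WT mice (SD, n = 5 each), which was 0.039 on the log2 scale in the fit.

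Marker genes of 9 cell types, among them cells that make or bear nets, were summed in each mouse. No marker on any of the 9 lists was called by edgeR (0.844% of all tested genes), and none was at 0 in any mouse. An unadjusted p under 0.05 was reached by 4 of the 8 striatal markers and by no more than 2 on any other list. The 9 parvalbumin interneuron markers summed to 893 to 1031 CPM in KO and 954 to 1117 CPM in WT mice, and 8 of the 9 had negative log2 fold changes. So had 7446 of all 14344 tested genes, and 5 of 5 vascular, 5 of 6 meningeal and 6 of 8 oligodendrocyte markers. On the other lists these were 3 of 6 microglial, 3 of 9 astrocyte, 2 of 7 oligodendrocyte precursor, 2 of 8 striatal and 2 of 5 excitatory markers. The parvalbumin list includes *Gad1*, *Gad2*, *Slc32a1* and *Lhx6*, which other inhibitory neurons express too, and *Gad1* alone had 319 to 388 CPM. The sum and the score are therefore not particular to parvalbumin cells. *Pvalb* was at 42.9 ± 5.54 CPM in KO and 52.6 ± 9.93 CPM in WT mice (SD, n = 5 each; edgeR adjusted p = 0.446). KO mouse 5 had the lowest parvalbumin sum and the lowest *Hapln4* and *Acan*. The same mouse had the lowest RIN (8.1) and the most counts (51231439), and the part of each in these values was not tested. With a score of these markers as the covariate in place of the surrogate variables, an alternative added after the data had been seen, *Hapln4* stood at -0.13 on the log2 scale, against -0.23 with neither (edgeR adjusted p = 0.871 and 0.385). In the same pair of fits *Hapln1* had 0.36 and 0.35, *Ncan* 0.058 and 0.14, *Tnr* 0.077 and 0.13, and *Acan* 0.28 and -0.017 with and without the score.

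Astrocyte markers, which cover a main source of *Bcan*, *Ncan* and *Tnc*, summed to 4424 to 5193 CPM in KO and 4609 to 5132 CPM in WT mice, with *Aldh1l1* at 69.2 ± 4.96 and 65.6 ± 5.90 CPM (SD, n = 5 each). The sums were 309 to 387 and 299.9 to 336 CPM for oligodendrocyte precursors and 6119 to 8865 and 6335 to 7955 CPM for oligodendrocytes. *Pdgfra* stood at 62.4 ± 4.92 and 55.2 ± 4.01 CPM, and *Mbp* at 2991 ± 563 and 3044 ± 278 CPM (SD, n = 5 each), in KO and WT mice. Microglial sums were 229 to 255 and 212 to 243 CPM (*Cx3cr1* 42.9 and 43.6), and vascular ones 232 to 257 and 231 to 264 CPM (*Cldn5* 23.7 and 24.2). Meningeal sums were 35.3 to 79.0 and 35.9 to 52.0 CPM, with *Dcn* at 11.98 ± 9.20 and 9.11 ± 1.29 CPM (SD, n = 5 each). KO mouse 2 had the meningeal sum of 79.0 CPM and 28.4 CPM of *Dcn*. In the other KO mice *Dcn* ran from 6.89 to 8.48 CPM, and in WT mice from 8.04 to 11.2 CPM. *Slc17a7*, for excitatory neurons, stood at 1668 ± 127 and 1559 ± 114 CPM (SD, n = 5 each).

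Striatal markers are enriched in tissue that lies near the PFC. The 8 in the table summed to 328 to 489 CPM in KO and 298 to 589.8 CPM in WT mice, with *Drd2* at 4.46 ± 2.34 and 2.87 ± 3.60 CPM (SD, n = 5 each). WT mouse 5 had the highest sum, while the other WT mice had at most 327.3 CPM and every KO mouse slightly or clearly more (328 CPM or above). Of the 8, 4 had an unadjusted p under 0.05 (10.6% of all tested genes), all with higher KO values, and the median log2 fold change of the list was 0.19, with 0.084 as the lowest adjusted p in edgeR. With the striatal score as the only covariate, *Hapln1* stood at 0.30 on the log2 scale, against 0.35 with none (edgeR adjusted p = 0.517 and 0.263), and *Hapln4* at -0.20, against -0.23 (0.601 and 0.385). *Tnc* stood at -0.15 with the score and -0.26 with none.

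Without KO mouse 3, the mouse lacking Y-linked counts, the log2 fold changes of *Tnr*, *Bcan* and *Acan* moved most in proportion, from 0.12 to 0.068, from -0.066 to -0.033 and from 0.083 to 0.14. *Hapln1* was then at 0.36 (edgeR adjusted p = 0.115), *Hapln4* at -0.15 (0.340), *Ncan* at 0.11, *Tnc* at -0.38 and *Has3* at 0.42.

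**Figure D5:**
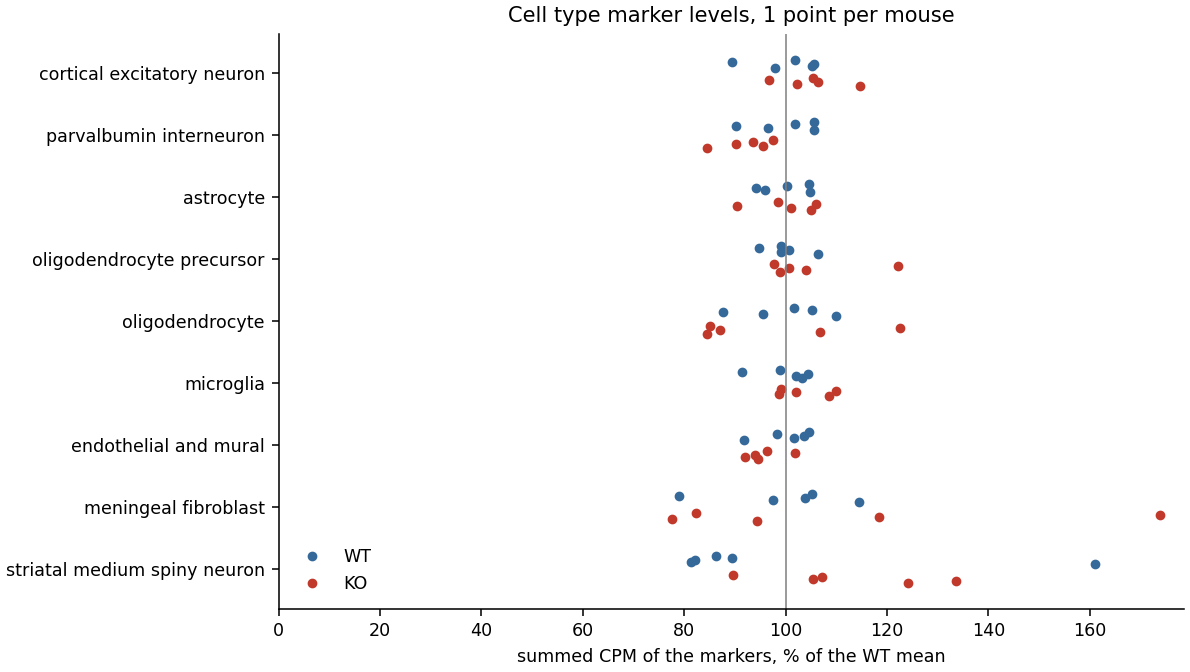
Summed CPM of the marker genes of 9 cell types in each mouse, as a percentage of the WT mean, with WT in blue and KO in red. Sums of the parvalbumin interneuron list, which includes genes of other inhibitory neurons, reach lower in KO (893 CPM) than in WT mice (954 CPM). Striatal and meningeal sums are spread most widely, with WT mouse 5 highest for the former at 589.8 CPM.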

How the data were processed

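RNA-seq counts of the PFC of 5 KO and 5 WT mice were analysed. The authors mapped reads to mm10 (STAR 2.7.1a), discarded secondary and multi-mapped alignments and assigned reads to exons of protein-coding Gencode M21 genes (HTSeq 0.9.1, intersection-strict mode), and the deposited values are these counts, neither scaled nor pooled. Intervals and floors cover counting error or the spread between these mice only, as reads carry no molecular identifiers.

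Counts were tested with edgeR (4.0.16, R 4.3.3): its filter on low counts, TMM scaling, the quasi-likelihood test with Benjamini-Hochberg adjustment over 14344 genes, and 3 surrogate variables from sva (3.50.0, seed 1) on log2(CPM + 1). Standard errors are the log2 fold change over the root of the F statistic. Gencode M21 supplied positions and exonic lengths, *Cemip2* being listed as *Tmem2*. DESeq2 (1.42.0), limma (3.58.1), covariates, RIN classes, scaling, filter and each mouse left out were alternatives. Scripts were tested on simulated counts. The members and lists were chosen with earlier results of these data known. Named beside the members are, in each group of the list, genes called, of largest change and of highest mean CPM, the first marker of each cell type, and the 2 most similar genes per member. Tables and figures were made with Python 3.11.15, pandas 2.3.3, numpy 2.4.6 and matplotlib 3.10.9. A single listed cell type marker is not reported here.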

Additional observations from a re-analysis of the deposited data

Results flagged for a closer look

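In 3 of the 42 groups of 5 mice examined for the 9 members and the 12 other named net genes, 1 mouse lay far from the other 4 of its genotype by Dixon's criterion, which chance exceeds in about 1 group of 20. *Acan* had 5.57 CPM in WT mouse 5, against 3.78 to 4.13 CPM in the other WT mice, and without this mouse its log2 fold change was 0.28 in place of 0.083 in edgeR's test, still not called. *Vcan* had 31.0 CPM in the same mouse, against 23.8 to 25.1 CPM. *Has3* had 3.66 CPM in KO mouse 4, against 1.89 to 2.31 CPM in the other KO mice. WT mouse 5 was also the mouse with the highest sum of striatal markers, and the part of this in its *Acan* and *Vcan* values was not tested.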

How the results depend on the processing

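The number of genes called over the whole table moved from 121 to 30 without surrogate variables, 34 and 57 with 1 and 2 of them, 38 with RIN, 9 with the striatal score and 12 with the parvalbumin score as covariate, and 229 with DESeq2. Fits restricted by RIN called 1 gene at 9.5 or above and 0 below 9, where 813 genes had an unadjusted p under 0.05 in edgeR, and those fits had fewer mice. Fits without 1 of the mice called 39 to 248 genes. With the replicate number as a block it was 24, and no member was called (*Hapln1* adjusted p = 0.142 in edgeR). These numbers come from the labels. Deviations of same-numbered mice from their genotype means correlated between -0.057 and 0.158 over genes, and those of differently numbered mice between -0.224 and 0.153. These overlapping ranges cannot decide whether the mice were paired, and the numbers were not taken as pairs.

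Of the members, none was called in most fits, but 1, *Hapln1*, was called with DESeq2 and without the filter, and 0 to 1 when each mouse was left out. Net genes outside the set numbered 2 with DESeq2 and 0 to 3 when each mouse was left out. *Hapln1*, *Hapln4*, *Ncan*, *Tnr* and *Has3* kept their direction in all 24 alternatives. *Acan* turned to -0.017 without surrogate variables, -0.033 with RIN, -0.047 with the striatal score, -0.034 with the replicate block and -0.30 below a RIN of 9, and ran from -0.035 to 0.28 with each mouse left out. *Bcan* turned to 0.015 and *Tnc* to 0.073 in mice with a RIN of 9.5 or above. The causes were not tested.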
